A study of Mus musculus with 55 samples.

Results

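The 8 genes described here belong to the Nodal branch of TGF-beta signalling in the mouse: Nodal, its co-receptor Tdgf1 (Cripto), the extracellular inhibitors Lefty1, Lefty2, Cer1 and Fst, the nuclear partner Foxh1 and the intracellular inhibitor Smad7. They were selected on measured values, because Tdgf1 differed widely between 2 lines of epiblast stem cells (EpiSCs) at both times sampled. Differences between the lines are therefore given as descriptions, without a test. All 8 were among the 15807 genes of the EpiSC count table, and 7 were among the 14602 genes of the tailbud table; Tdgf1 was not analysed in tailbuds.

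The series concerns Cdx transcription factors and T (Brachyury) in the progenitors that extend the body axis. RNA of 8 EpiSC libraries and 9 tailbud libraries was counted by CEL-seq, a method that reads the 3′ end of each transcript. The EpiSCs came from pre-streak embryos of E6.0. WT cells carry no named alteration, and the Null cells were derived from embryos called CdxKO in the culture text, part of which also speaks of cells null for Wnt3. Which Cdx alleles were removed is not given in the sources used here, nor is the number of lines, so genotype and cell line cannot be told apart. Cells at 0h were grown without feeders on fibronectin with Fgf-basic at 12 ng/mL, Activin A at 20 ng/mL and IWP2 at 2 µM, a compound that blocks Wnt secretion. Cells at 24h had IWP2 taken away and received Chiron at 3 µM, a GSK3 inhibitor that activates Wnt signalling, together with Fgf8 at 120 ng/mL. No library was left untreated for 24 h, so the effects of Chiron, of Fgf8, of IWP2 removal and of time cannot be told apart. Each of the 4 EpiSC groups (WT and Null, 0h and 24h) had 2 libraries. The tailbuds were microdissected from E8.0 embryos without treatment, in groups of 3 libraries named WT, Cdx1-4 and Triple, whose alleles are likewise not spelled out, and 1 Cdx1-4 column whose name begins with Cd4 was taken to be of that group. Tailbud libraries are named here by the colour and number of their columns (green-1, blue-1, blue-2).

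Nodal is a secreted ligand that signals through activin receptors. It needs a cell-surface co-receptor such as Cripto, the product of Tdgf1, while activin does not. The receptors phosphorylate Smad2 and Smad3, which enter the nucleus with Smad4 and bind DNA with partners such as Foxh1. Lefty1 and Lefty2 are targets of the pathway that block it in turn, Cer1 binds Nodal outside the cell, Fst binds activin, and Smad7 blocks the receptors from inside. In the mouse embryo the pathway maintains the epiblast, induces the primitive streak and later sets left from right. Because the EpiSC medium contained Activin A, the receptors were supplied with a ligand that does not depend on Cripto.

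Promoter stretches were taken from the promoter table of RefSeq (GRCm38.p6) for 3 of the 8 members. Smad7 and the other members were not searched, and whether that table holds them is not read from this. The 250 bases before the transcription start of each are printed 5′ to 3′ on the strand of the gene, to show what sequence stands before the co-receptor, the ligand and the inhibitor Cer1. Capitals mark matches to any of 5 motifs searched on both strands: AATCCAC for Foxh1, CAGAC for Smad proteins, CTTTGAT for Tcf/Lef, TTTATNG for Cdx and GGTGTGA for T-box factors. The stretches are chr9:110946159-110946408 (Tdgf1, minus strand), chr10:61417722-61417971 (Nodal, plus strand) and chr4:82885152-82885401 (Cer1, minus strand).
Tdgf1: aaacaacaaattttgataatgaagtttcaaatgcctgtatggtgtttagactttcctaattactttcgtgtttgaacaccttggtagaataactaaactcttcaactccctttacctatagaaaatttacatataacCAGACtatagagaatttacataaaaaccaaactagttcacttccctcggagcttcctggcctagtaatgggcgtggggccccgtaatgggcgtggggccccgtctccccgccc
Nodal: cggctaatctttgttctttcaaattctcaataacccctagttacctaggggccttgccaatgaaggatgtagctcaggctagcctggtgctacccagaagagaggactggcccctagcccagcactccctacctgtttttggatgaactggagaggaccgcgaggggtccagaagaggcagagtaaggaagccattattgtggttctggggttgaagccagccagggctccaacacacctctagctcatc
Cer1: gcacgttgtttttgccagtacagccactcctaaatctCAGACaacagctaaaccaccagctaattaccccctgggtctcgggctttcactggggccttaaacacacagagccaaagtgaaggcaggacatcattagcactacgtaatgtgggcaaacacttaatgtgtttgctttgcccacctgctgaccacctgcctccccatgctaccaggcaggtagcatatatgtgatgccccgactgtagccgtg
The Tdgf1 and Cer1 stretches each held 1 match, in both cases the Smad letters CAGAC, which 42.2% of the 32851 promoter stretches of the same length hold. None of the other 4 motifs was found in the 3 stretches. Of all promoter stretches, 2.1% held AATCCAC, 3.21% CTTTGAT, 9.81% TTTATNG and 3.33% GGTGTGA. The GC content was 42.0% before Tdgf1, 53.2% before Nodal and 51.6% before Cer1.

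In the GRCm38.p6 gene table of RefSeq, Tdgf1 lies at chr9:110939608-110946158, Nodal at chr10:61417972-61425338, Foxh1 at chr15:76667829-76671614, Fst at chr13:114452262-114458989, Cer1 at chr4:82881751-82885151 and Smad7 at chr18:75367365-75395935. Lefty2 (chr1:180893108-180899107) and Lefty1 (chr1:180935022-180938401) are neighbours with 35915 bases between them. They are closely related copies, and 2 Tdgf1 pseudogenes are annotated on chromosomes 16 and 17 that are not among the genes of either table, so reads of these genes may have been divided or merged in counting.

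Library totals ran from 1114055 to 2914870 counts in EpiSCs and from 389601 to 854852 in tailbuds. Levels are given as CPM, counts scaled to the same library total with TMM factors (the CPM unit), and levels of different genes are not compared. Of 7 primed epiblast markers, 6 were found in every EpiSC group, and Nanog had 1 count in a WT 0h library and 0 in all others. Cdx2, a gene of the family named in the knockout, had 0 and 6 counts in the Null libraries at 0h and 21 and 19 at 24h, against 6 and 5 and then 87 and 21 in WT. Wnt3, which the culture text also names, had 12 counts in the Null libraries at 0h and 69 at 24h, against 13 and 42 in WT. A 3′ tag outside a deleted part checks nothing, so these counts do not test the Null label. In bulk RNA, fewer cells of a type and less RNA per cell cannot be told apart. Whether the libraries of a group stem from different cultures or different animals is not given in the sources used here, so the p-values measure the spread between these libraries, which may be technical.

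Tdgf1 was higher in every Null library than in every WT library. WT cells had 30.8 and 26.0 CPM at 0h and 54.6 and 64.0 CPM at 24h. Null cells had 752 and 642 CPM at 0h and 2075 and 1998 CPM at 24h. The lowest Null library stood above the highest WT library by a wide margin at either time. On the log2 scale the difference between the lines, Null minus WT, was 4.61 ± 0.14 (SE) at 0h and 5.12 ± 0.13 at 24h, or 24.5-fold and 34.8-fold. At 0h only 6 of the 9703 genes fitted differed more between the lines, and at 24h only 5. These are the values the genes were selected on, and nothing is read from their size.

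**Figure D1:**
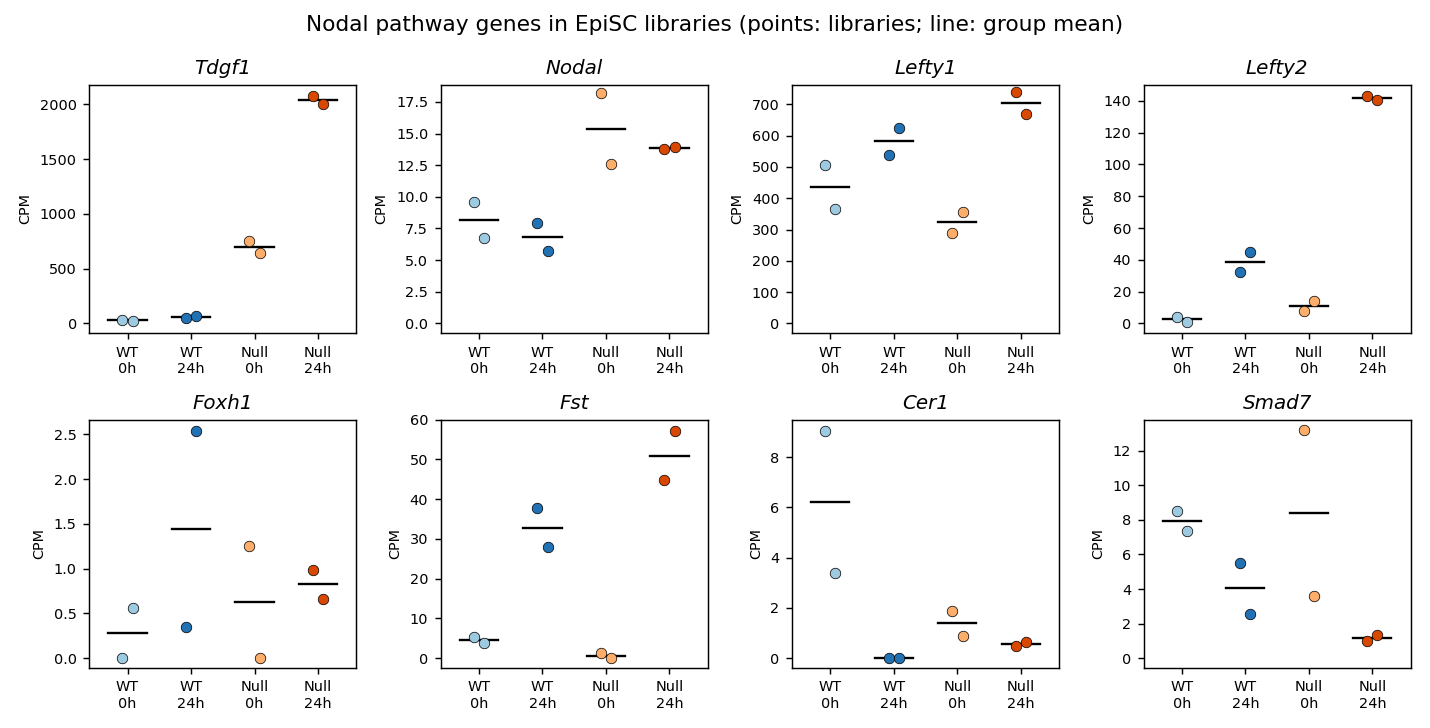
Level of each of the 8 genes in the 8 EpiSC libraries, with CPM on a linear axis from 0 (a separate range for each gene), points for libraries and a line at the mean of the 2 libraries of a group. Tdgf1 is between 26.0 and 64.0 CPM in WT cells and between 642 and 2075 CPM in Null cells, and Lefty2 and Fst are highest at 24h in both lines.

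The rule that selected the genes did not use the response to 24 h of Chiron and Fgf8, although it is measured in the same libraries. Earlier results of these data were known when the genes and lists were chosen. Called shares below are therefore not those of lists chosen independently of the data. Tdgf1 rose in both lines. The log2 difference between 24h and 0h was 1.04 ± 0.17 in WT cells (2.05-fold, edgeR adjusted p = 2.96e-05) and 1.54 ± 0.10 in Null cells (2.92-fold, edgeR adjusted p = 9.51e-14). In each line both libraries at 24h were above both at 0h. The Null response exceeded the WT response by 0.51 ± 0.21 on the log2 scale, a description without a test, and by 0.36 without WT 24h replicate 1.

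Of the 8 genes, 6 had enough counts to be tested in EpiSCs, while Foxh1 and Cer1 did not. In WT cells 4 of these 6 rose and 0 fell, where 16.8% of all 9703 tested genes were called in either direction. In Null cells 4 rose and 1 fell, where 18.6% of all genes were called. The median log2 difference over the 6 genes was 0.72 in WT cells and 1.34 in Null cells, against -0.01 and 0.01 over all tested genes. The genes that rose in both lines were Tdgf1, Lefty1, Lefty2 and Fst, and the gene that fell in Null cells was Smad7.

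Nodal, the ligand, did not pass the test in either line. WT cells had 9.57 and 6.78 CPM at 0h and 7.95 and 5.70 CPM at 24h, and Null cells 18.2 and 12.6 CPM and then 13.8 and 14.0 CPM. The libraries of the 2 times overlapped within each line. The log2 difference over 24 h was -0.21 ± 0.39 in WT cells (edgeR adjusted p = 0.795) and -0.18 ± 0.34 in Null cells (edgeR adjusted p = 0.770). These rest on 9 to 29 counts per library, so changes of this size were not detectable at this depth. Between the lines, every Null library was above every WT library, by 0.93 ± 0.37 on the log2 scale at 0h and 0.96 ± 0.36 at 24h.

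Lefty2, an inhibitor that Nodal signalling itself induces, rose strongly in both lines. Its level in WT cells was 4.25 and 1.13 CPM at 0h and 32.5 and 45.0 CPM at 24h. In Null cells it was 8.16 and 14.4 CPM at 0h and 143 and 140 CPM at 24h. The groups did not overlap, and the lowest library at 24h was above the highest at 0h. The log2 rise was 3.74 ± 0.37 in WT cells (13.4-fold, edgeR adjusted p = 1.07e-09) and 3.71 ± 0.25 in Null cells (13.1-fold, edgeR adjusted p = 1.71e-13). The difference between these responses, Null minus WT, was -0.04 ± 0.35. Both this difference and the rise in WT cells depended on the WT 0h replicate kept. Without WT 0h replicate 1 the rise in WT cells was 4.97 and the difference -1.26, and without WT 0h replicate 2 they were 3.12 and 0.58, with the rise still called in both. At each time Lefty2 was higher in Null cells, by 1.95 ± 0.52 at 0h and 1.91 ± 0.18 at 24h on the log2 scale. The difference at 0h depended on the WT replicate kept, with 3.17 without WT 0h replicate 1 and 1.33 without WT 0h replicate 2.

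Lefty1, the neighbouring copy, started from a high level and rose less. WT cells had 507 and 365 CPM at 0h and 539 and 626 CPM at 24h, a log2 rise of 0.41 ± 0.13 (1.33-fold, edgeR adjusted p = 0.0216). Lefty1 no longer passed in WT cells when WT 0h replicate 2 (adjusted p = 0.431) or WT 24h replicate 2 (0.150) was left out, after thinning all libraries to equal totals (0.102) or with DESeq2 (0.0640). Null cells had 288 and 357 CPM at 0h and 739 and 668 CPM at 24h, a log2 rise of 1.13 ± 0.13 (2.20-fold, edgeR adjusted p = 9.63e-08). The Null libraries were the lower ones at 0h, with a log2 difference from WT of -0.45 ± 0.13, and the higher ones at 24h, with 0.28 ± 0.12. Without WT 0h replicate 1 the difference at 0h was -0.18.

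Fst, the activin-binding protein follistatin, rose in both lines. WT cells had 5.32 and 3.96 CPM at 0h and 37.7 and 27.9 CPM at 24h, a log2 rise of 2.83 ± 0.33 (7.13-fold, edgeR adjusted p = 4.89e-08). Null cells had 1.26 and 0 CPM at 0h and 44.8 and 57.2 CPM at 24h. Both Null libraries were below both WT libraries at 0h, and above both at 24h. The 2 Null libraries at 0h held 2 counts in all against 177 at 24h, a ratio of pooled counts of 67.8 (95% interval 18.5 to 564, counting error only; edgeR adjusted p = 2.14e-11). The fibroblast marker list, 7 genes that mark feeder cells, summed to 208 to 253 CPM in WT cells at 0h and 101 to 119 CPM in Null cells at 0h. At 24h it was 114 to 148 CPM in WT and 85.7 to 108 CPM in Null cells. Most of the difference at 0h lay in the collagen gene Col3a1, with a mean of 171 CPM in WT and 61.9 CPM in Null cells, while Thy1 (6.80 and 7.32 CPM) and Dcn (3.26 and 4.17 CPM) were slightly higher in Null cells. The list's part in the Fst difference at 0h was not tested.

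Smad7, the intracellular inhibitor, fell in Null cells. Its level there was 13.2 and 3.59 CPM at 0h and 0.985 and 1.33 CPM at 24h, from 25 counts in all at 0h to 4 at 24h. The log2 difference was -2.92 ± 0.72 (edgeR adjusted p = 0.00315). The call rests on few counts, and Smad7 no longer passed with Null 0h replicate 1 left out (adjusted p = 0.409), with Null 24h replicate 1 left out (0.0551) or after thinning to equal totals (0.100). In WT cells Smad7 had 8.51 and 7.35 CPM at 0h and 5.53 and 2.54 CPM at 24h, and the log2 difference of -0.84 ± 0.51 did not pass the test (edgeR adjusted p = 0.289). After thinning to equal totals the WT difference turned to 0.39.

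Most Cer1 counts in EpiSCs were in WT cells at 0h. The 2 WT libraries held 17 and 6 counts at 0h and 0 at 24h, so the level at 24h was at least 9.39-fold lower, taking a floor of 3 counts over the group. The Null libraries held 3 and 1 counts at 0h and 1 each at 24h. Without a filter on low counts, the fall in WT cells passed the test (edgeR adjusted p = 1.32e-05) and the change in Null cells did not (edgeR adjusted p = 0.691). The value for WT cells was the lowest among the 8 alternatives that could test Cer1 there. All 8 kept WT 0h replicate 1, which held 17 of the 23 counts at 0h. Without that library Cer1 was too low to test. With 0 counts at 24h the log2 difference depends on the small count that the fit adds, so only the bound of 9.39-fold is read. Cer1 is known from visceral and definitive endoderm. The definitive endoderm list of 6 markers summed to 95.0 to 103 CPM in WT cells at 0h and 39.9 to 42.5 CPM at 24h. In Null cells it summed to 158 to 187 CPM at 0h and 76.4 to 124 CPM at 24h. Its 6 markers did not move as 1 at 0h. Cldn6, Epcam and Krt8, epithelial genes that are not specific to endoderm, had mean levels of 65.7, 60.3 and 29.1 CPM in Null cells against 15.0, 33.9 and 12.0 CPM in WT cells. Trh was also slightly higher in Null cells, at 11.5 CPM against 9.91 CPM in WT cells. The other listed markers ran the other way, with Sox17 at 22.0 CPM in WT and 5.07 CPM in Null cells and Foxa1 at 6.05 and 0.942 CPM. Foxa2, which is in the target list and not in this one, was at 14.1 and 2.47 CPM. The part of these markers in the Cer1 values was not tested. Foxh1, the nuclear partner of the Smads, had 0 to 4 counts in each EpiSC library, too few to compare.

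**Figure D2:**
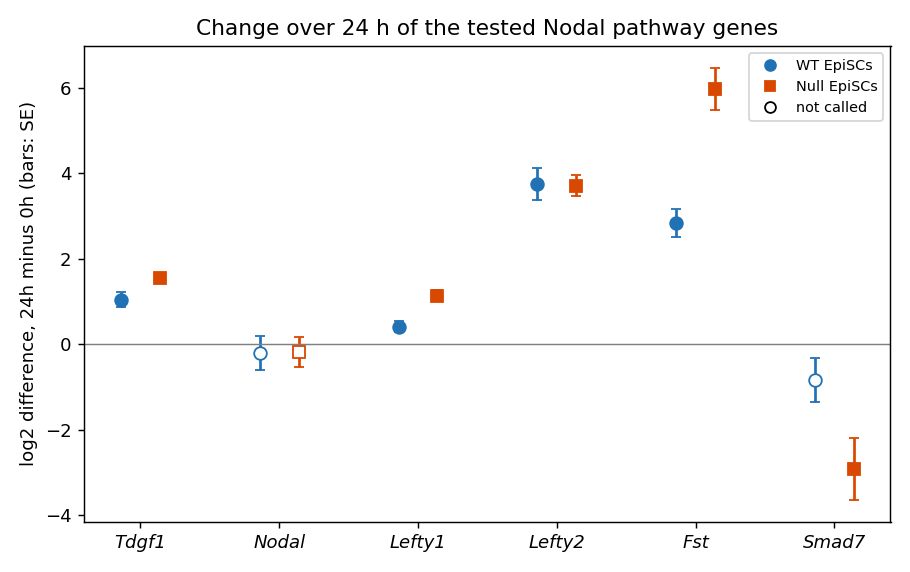
Log2 difference between 24h and 0h for the 6 tested genes in WT cells (circles) and Null cells (squares), with bars of 1 SE and open symbols where the adjusted p missed the threshold. Tdgf1, Lefty1, Lefty2 and Fst lie above 0 in both lines, Nodal lies close to 0, and Smad7 lies at -2.92 in Null cells and at -0.84 in WT cells, where its sign turned after thinning to equal totals.

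Marker lists of other cell types changed over the same 24 h. The streak and tailbud progenitor list of 10 genes went from 84.0 to 93.3 CPM to 684 to 923 CPM in WT cells, and from 34.1 to 44.0 CPM to 893 to 973 CPM in Null cells. Much of its sum at 24h was T, with means of 465 CPM in WT and 557 CPM in Null cells. T is also among the pathway targets. In each line at 24h, Cdx4 had 0 counts and Nkx1-2 had 1. The primed epiblast list went from 943 to 990 CPM to 262 to 271 CPM in WT cells, and from 1383 to 1629 CPM to 283 to 320 CPM in Null cells. The list of 9 visceral and extraembryonic endoderm genes, a tissue that also transcribes Lefty1, went from 17.0 to 22.1 CPM to 47.0 to 55.8 CPM in WT cells, and from 9.42 to 39.5 CPM to 99.5 to 99.7 CPM in Null cells. Most of the change in this endoderm list lay in Gata6, whose mean went from 10.2 to 33.7 CPM in WT and from 3.99 to 66.1 CPM in Null cells, and Gata4, which went from 0.797 to 6.74 CPM and from 0 to 9.75 CPM. The other 7 genes had group means of at most 9.68 CPM each, and Cubn and Rbp4 were lower at 24h than at 0h in Null cells. Gata4 and Gata6 are also known from mesoderm. The part of any of these lists in the values above was not tested.

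The rest of the pathway was followed with 54 listed gene names in 5 roles, of which 50 were in the EpiSC table and 37 were tested. Cfc1 was listed also under its other name, Cryptic. This list too was chosen with earlier results of these data known, which the shares of all genes do not allow for. In WT cells 6 rose and 6 fell, 12 of 37 where 16.8% of all tested genes were called. In Null cells 9 rose and 5 fell, 14 of 37 where 18.6% of all tested genes were called. The median log2 difference of the 37 was -0.15 in WT cells and 0.06 in Null cells. In both lines the transcribed targets held more called genes than any other role, followed by the inhibitors. After thinning to equal totals the WT count of 12 called genes fell to 6.

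Among the 8 tested targets of the pathway in embryo and epiblast, 5 rose and 2 fell in WT cells, and 6 rose and 0 fell in Null cells. Of all 9703 tested genes, 16.8% were called in WT cells (795 up, 837 down) and 18.6% in Null cells (891 up, 916 down). Mixl1, a homeobox gene of the streak, rose by 4.51 ± 0.19 in WT cells (edgeR adjusted p = 7.14e-19) and by 6.39 ± 0.23 in Null cells (edgeR adjusted p = 1.22e-20) on the log2 scale. T, the streak gene Brachyury, rose by 3.16 ± 0.15 and 5.38 ± 0.19 (edgeR adjusted p = 9.83e-18 and 1.22e-20). Gsc, a homeobox gene of the organizer, rose by 2.86 ± 0.22 and 4.95 ± 0.28 (edgeR adjusted p = 4.10e-12 and 1.36e-15), and Lhx1, a LIM homeobox gene, by 2.64 ± 0.63 and 5.63 ± 0.70 (edgeR adjusted p = 0.00262 and 1.63e-07). The 2 targets that fell in WT cells were Foxa2, with -1.97 ± 0.44, and Sox17, with -0.99 ± 0.30, both endoderm transcription factors and named after their values were seen. T and Mixl1 are also known as targets of Wnt signalling.

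The inhibitors are set against the same shares of all tested genes, 16.8% called in WT cells (795 up, 837 down) and 18.6% in Null cells (891 up, 916 down). Of the 13 tested inhibitors, 0 rose and 4 fell in WT cells, and 1 rose and 4 fell in Null cells. The 4 in WT cells were Chrd, a Bmp antagonist, with -1.86 ± 0.35, Fstl1, a relative of follistatin, with -1.18 ± 0.17, Tgif2, a Smad co-repressor, with -0.69 ± 0.19, and Skil, another co-repressor, with -0.64 ± 0.20. In Null cells Nog, a Bmp antagonist, rose by 2.40 ± 0.77, while Fstl1 (-1.25 ± 0.19), the ubiquitin ligase gene Nedd4l (-1.13 ± 0.35) and the phosphatase gene Ppm1a (-0.80 ± 0.13) fell. Their edgeR adjusted p ran from 1.08e-05 (Ppm1a in Null cells) to 0.0256 (Skil in WT cells).

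Of the 16 tested receptors, Smads with their partners, and ligand genes, 1 was called in WT cells and 3 in Null cells, where 16.8% and 18.6% of all tested genes were called. Tgfbr3, the co-receptor betaglycan, was the 1 called gene among 5 tested receptors and rose by 1.66 ± 0.38 in WT cells (edgeR adjusted p = 0.00151) and by 2.74 ± 0.48 in Null cells (edgeR adjusted p = 5.73e-05). None of the 7 tested Smads and nuclear partners passed in WT cells, and in Null cells 1 fell, Trim33, which encodes a Smad-binding ubiquitin ligase (-0.51 ± 0.16, edgeR adjusted p = 0.0254). Of the 4 tested ligand and maturation genes, 0 passed in WT cells, and Pcsk5, a proprotein convertase gene, rose by 1.64 ± 0.53 in Null cells (edgeR adjusted p = 0.0256).

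**Figure D3:**
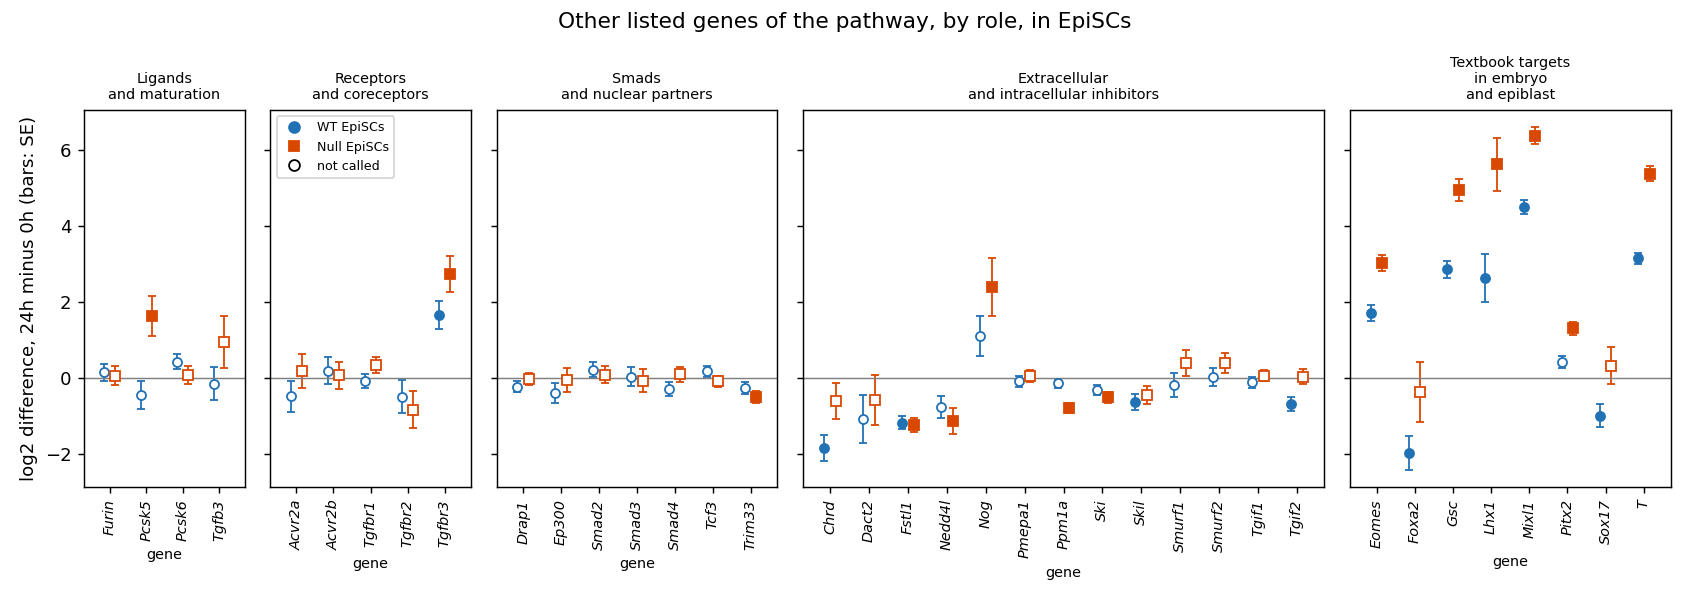
Log2 difference between 24h and 0h for the 37 other tested genes of the pathway in WT cells (circles) and Null cells (squares), grouped by role, with bars of 1 SE and open symbols where the adjusted p missed the threshold. The targets reach 6.39 (Mixl1 in Null cells), whereas the 7 Smads and nuclear partners lie near 0.

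The genes whose levels ran most like Tdgf1 over the 8 EpiSC libraries were Gm10653, Tagln3, Gm7120, 6820431F20Rik and Gm1821, with Pearson coefficients of log2 CPM from 0.976 to 0.992 among 5842 genes compared. The 8 libraries form 4 groups, so this likeness mainly says that the same groups are high. Tagln3, which encodes a transgelin, averaged 6.58 CPM in WT cells at 0h, 9.88 in WT at 24h, 40.0 in Null at 0h and 54.2 in Null at 24h. 6820431F20Rik averaged 466, 595, 838 and 1150.2 CPM in the same order. For Nodal the 5 most alike genes were Klhl26, Pik3c2a, Mcm10, Cldn12 and Capza1, with coefficients from 0.967 to 0.975 over the same libraries. Klhl26 averaged 18.0, 16.5, 35.8 and 30.9 CPM. Both sets are descriptions without a test.

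In tailbuds all 7 measured genes were rare, with 0 to 12 counts per library, and 0 of 7 reached the count needed for the test. Called genes over the whole table came to 2.9% of the 6003 tested between Triple and WT, 0.133% between Cdx1-4 and WT and 2.02% between Triple and Cdx1-4. Ratios below are of pooled counts per scaled library total, with exact 95% intervals that cover counting error only. The Triple and Cdx1-4 groups were compared with the same WT libraries.

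Cer1 had more counts in mutant than in WT tailbuds. WT libraries had 2.35 (green-1), 0 and 0 CPM, Cdx1-4 libraries 6.51, 5.32 and 7.997 CPM, and Triple libraries 31.4 (green-1), 9.36 and 6.66 CPM. Every mutant library was above every WT library, while the Triple and Cdx1-4 libraries overlapped. From 2 counts in WT and 20 in Triple, the ratio was 11.7 (95% interval 2.85 to 104), and from 13 counts in Cdx1-4 it was 5.33 (1.21 to 48.6). Without Triple green-1, which held 12 of the 20 counts, the ratio of Triple to WT was 6.44. Triple stood 2.20-fold above Cdx1-4 (1.04 to 4.82), and 1.21-fold without Triple green-1. With no filter on low counts, edgeR gave Cer1 an adjusted p of 0.00556 between Triple and WT, 0.747 between Cdx1-4 and WT and 0.652 between the mutants.

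Cer1 is also transcribed in forming somites and endoderm, whose marker lists differed in part between the groups. The somite list of 3 genes summed to 235 to 274 CPM in Triple, 67.8 to 96.0 CPM in Cdx1-4 and 41.1 to 55.8 CPM in WT libraries. The definitive endoderm list summed to 1417 to 1556 CPM in Triple, 941 to 1242 CPM in Cdx1-4 and 1061 to 1317 CPM in WT libraries, and the streak and tailbud progenitor list to 382 to 480, 834 to 984 and 1200 to 1214 CPM. The visceral and extraembryonic endoderm list overlapped between the groups, with 928 to 1142 CPM in Triple, 400 to 1053 CPM in Cdx1-4 and 598 to 987 CPM in WT libraries. Most of the somite sum was Meox1, with means of 213, 64.8 and 37.2 CPM in Triple, Cdx1-4 and WT. Much of the definitive endoderm difference between Triple and WT was Krt8, with 599 and 386 CPM. In the progenitor list, much of the difference between Cdx1-4 and WT was Cdx1 (59.3 and 175 CPM) and Cdx4 (0.443 and 41.9 CPM). Both belong to the family in that group's name. Hoxb9 was also lower in Cdx1-4 (150 and 205 CPM), while T (178 and 187 CPM), Cdx2 (198 and 204 CPM) and Tbx6 (145 and 155 CPM) were close. In Triple, T (104 CPM), Cdx2 (96.4 CPM) and Tbx6 (48.5 CPM) were lower. All 3 somite markers had counts in Triple and WT, and Uncx was at 0 in Cdx1-4. The part of these lists in the Cer1 values was not tested.

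The Lefty genes had fewer counts in Triple tailbuds. Lefty2 was at 8.23 (green-1), 22.8 and 24.3 CPM in WT, 6.51, 14.6 and 14.0 CPM in Cdx1-4, and 5.23, 4.68 and 6.66 CPM in Triple libraries. All 3 Triple libraries were below all WT libraries, and the WT and Cdx1-4 libraries overlapped. With 26 counts in WT and 8 in Triple, WT stood 2.77-fold above Triple (95% interval 1.22 to 7.08), and the edgeR adjusted p ran from 0.142 to 0.467 over the 9 alternatives that could test it. Lefty1 was at 2.35, 7.61 and 4.87 CPM in WT, 3.90, 5.32 and 7.997 CPM in Cdx1-4, and 0, 2.34 and 0 CPM in Triple libraries. The single count in Triple stood against 11 in Cdx1-4, a ratio of 7.68 in favour of Cdx1-4 (1.12 to 330), and against 7 in WT, where the interval of 0.766 to 269 around a ratio of 5.96 includes no difference. With no filter the edgeR adjusted p for Lefty1 was 0.495 and 0.657.

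For 3 of the 7 genes, Lefty1, Lefty2 and Cer1, the Triple and WT libraries did not overlap, where this held for 12.6% of all genes with counts in these libraries. It held for 1 of 7, Cer1, between Cdx1-4 and WT (10.2% of all genes), and for 1 of 7, Lefty1, between Triple and Cdx1-4 (12.1%). Nodal had 0 to 6 counts per library, and Triple held both the highest (14.0 CPM) and the lowest library (0). Its pooled ratio of Triple to WT was 1.84 (0.653 to 5.61). Fst had 1 to 4 counts per library, Smad7 0 to 4 and Foxh1 0 or 1, and for none of them could a difference between the groups be detected at this depth.

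**Figure D4:**
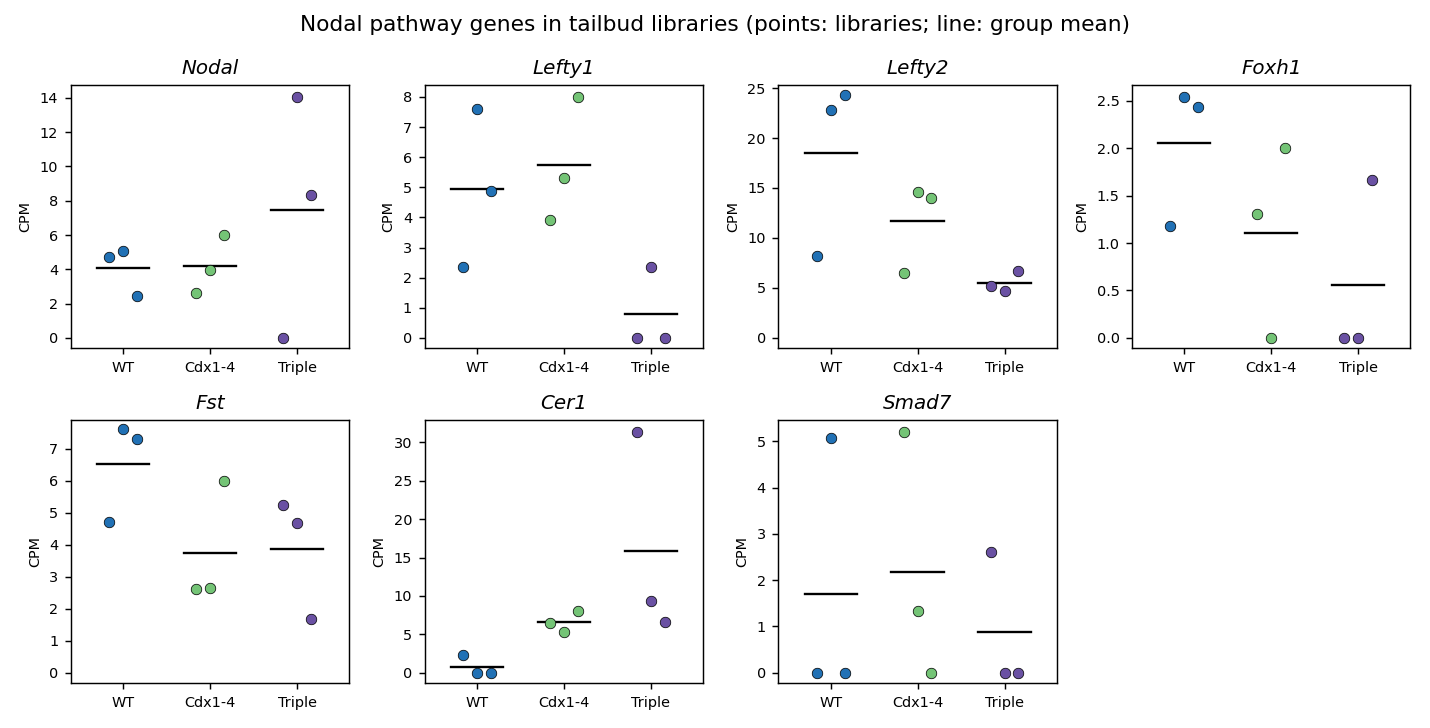
Level of the 7 genes in the 9 tailbud libraries, with CPM on a linear axis from 0 (a separate range for each gene), points for libraries in the order green-1, blue-1, blue-2 and a line at the mean of the 3 libraries of a group. Cer1 reaches 31.4 CPM in Triple green-1 against at most 2.35 CPM in WT libraries, Lefty2 lies between 4.68 and 6.66 CPM in Triple libraries against at least 8.23 CPM in WT libraries, and 1 count corresponds to 1.18 to 2.61 CPM.

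Of the 54 other listed gene names of the pathway, with Cfc1 listed also as Cryptic, 46 were in the tailbud table and 20 were tested there. Between Triple and WT 0 rose and 2 fell, where 2.9% of all 6003 tested genes were called. T fell by 0.85 ± 0.17 on the log2 scale (edgeR adjusted p = 0.000898), and Tgif1, a Smad co-repressor, fell by 0.78 ± 0.21 (edgeR adjusted p = 0.0196). T was at 202, 200.5 and 158 CPM in WT and 94.1, 110.0 and 107 CPM in Triple libraries, which did not overlap. Between Triple and Cdx1-4, a comparison that uses the same Triple libraries, 2 fell, T by 0.77 ± 0.17 and Tgif1 by 0.81 ± 0.20 (edgeR adjusted p = 0.00428 and 0.0140), and Sox17 rose by 0.60 ± 0.16 (edgeR adjusted p = 0.0268). Over all tested genes 2.02% were called between Triple and Cdx1-4. Between Cdx1-4 and WT none of the 20 was called, where only 0.133% of all tested genes were. The median log2 difference of the 20 genes was 0.00 in Triple relative to WT, -0.02 in Cdx1-4 relative to WT and 0.13 in Triple relative to Cdx1-4, where all tested genes had a median of 0.00 in each comparison. In the blue-named libraries alone, with 2 per group, 0 of these genes were called in any of the 3 comparisons.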

How the data were processed

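RNA was counted by CEL-seq from 10 ng of total RNA, sequenced on a NextSeq and mapped to mm10, per the labels. The aligner, the counting tool and the handling of molecular identifiers are not given in the sources used here. The authors deposited 2 tables of whole-number counts per gene, not normalised, and these were used as deposited apart from 8 spike-in entries in each (2 counts and 1 count in all). Each table was fitted alone with edgeR 4.0.16 (R 4.3.3), using TMM scaling, filterByExpr, 1 mean per group and the robust quasi-likelihood test. This tested 9703 EpiSC genes (4 residual degrees of freedom, common coefficient of variation 0.081) and 6003 tailbud genes (6, and 0.0995). Benjamini-Hochberg adjustment ran over all tested genes and a gene was called below 0.05. Standard errors come from the F statistic. Where a group held 0 counts, 3 counts over the group served as the floor.

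The members, the pathway and marker lists and the motifs were chosen with earlier results of these data known. Named were all members, at most the 4 called pathway genes of largest change per role, and the 5 genes most like Tdgf1 and Nodal (mean of at least 20 CPM, correlation of log2 CPM plus 1). The fit was also run on simulated counts with the same spread for every gene. That run does not check the spread of single genes in these data. Alternatives were DESeq2 1.42.0, its size factors, no filter on low counts, thinning, a replicate block, only the groups compared, blue-named tailbuds and leaving out each library. Every pair of replicates differed by more than sampling noise (chi-square per degree of freedom 1.59 to 2.90). Binding, chromatin and contact files were not analysed here.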

Additional observations from a re-analysis of the deposited data

How the results depend on the processing

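Tdgf1, Lefty2 and Fst rose in both EpiSC lines under every alternative tried, with adjusted p up to 0.00317 for Tdgf1 in WT cells. The count of called members was 3 to 5 in WT cells, with Cer1 counted where a setting let it be tested, and 4 to 5 in Null cells. Dropping the low-count filter let 1 tailbud member, Cer1, pass between Triple and WT. With DESeq2 the called genes fell to 844 in WT and 1030 in Null cells, 105 between Triple and WT and 69 between Triple and Cdx1-4, and the called pathway genes to 9 in Null cells and to 1 in each of these 2 tailbud comparisons. Thinning left 982 genes and 6 pathway genes in WT cells, 76 genes between Triple and Cdx1-4 and 1 pathway gene between Triple and WT. Blue-named tailbuds alone left 74 genes and 0 pathway genes between Triple and WT and 38 and 0 between Triple and Cdx1-4. These settings test fewer samples, fewer counts or another model; which genes were lost was not followed.

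Leaving out 1 library at a time gave 1034 to 1693 called genes in WT cells (lowest without WT 24h replicate 1, 1068 without WT 0h replicate 1) and 1121 to 1975 in Null cells (1121 without replicate 1 at 0h or at 24h). Between Triple and Cdx1-4 it gave 70 to 132 genes (78 without Triple green-1, 70 without Triple blue-1) and 1 to 4 pathway genes (1 without Triple blue-2). Between Triple and WT it gave 1 to 2 pathway genes, with 1 without Triple green-1, Triple blue-2 or WT blue-1. The larger Tdgf1 response of Null cells ranged from 0.36 (without WT 24h replicate 1) to 0.62. Left-out tailbud libraries for the count ratios were added after seeing the data.

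Replicate numbers were shared between groups. Deviations of same-numbered libraries had correlations of 0.0073 to 0.0869 in EpiSCs, all small and positive, and of -0.091 to 0.0514 in tailbuds. What these libraries share beyond a number was not tested. With the replicate block the called genes were 1939 in WT and 2092 in Null cells, against 1632 and 1807 without it. In tailbuds they were 163 between Triple and WT, 6 between Cdx1-4 and WT and 118 between Triple and Cdx1-4. Without the block these were 174, 8 and 121. The called members stayed at 4, 5, 0, 0 and 0, and Tdgf1 differed between the lines by 4.61 and 5.13. Depth limits the tailbud members most, where 3 counts in a library equal 3.53 to 7.84 CPM.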
